A study of Mus musculus with 21 samples.

Results

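The genes described are the glutathione S-transferases (GST), UDP-glucuronosyltransferases (UGT) and sulfotransferases (SULT) in mouse liver after lipopolysaccharide (LPS), the bacterial endotoxin, which was injected as a model of sepsis. Members are the genes listed for liver whose symbol begins with Gst, Mgst, Ugt1, Ugt2, Ugt3 or Sult. They number 17 of the 5298 genes listed, with 6 GST, 7 UGT and 4 SULT genes and no microsomal GST or UGT3 gene. The same prefixes match 76 of the 35550 genes listed for the cell line, and the genes of these families that are not listed for liver were not analysed in liver here.

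These enzymes carry out the conjugation step of detoxification. GST enzymes join glutathione to electrophiles, UGT enzymes of the endoplasmic reticulum join glucuronic acid to bilirubin, steroids, bile acids and drugs, and SULT enzymes of the cytosol transfer sulfate to phenols, steroids and bile acids. Hepatocytes are their main site in liver, and the products leave through transporters of the bile canaliculus and the sinusoid.

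The study used C57BL/6J livers with 1 library per group. Wild-type (WT) mice received LPS at 30 mg/kg with CTM at 100 mg/kg, LPS at 30 mg/kg alone, or PBS. A further WT pair received LPS with or without depletion of liver macrophages, and TG2-KO mice, which lack transglutaminase 2 (Tgm2), received LPS at 30 mg/kg or PBS. All injections were intraperitoneal. The LPS dose of the depletion pair, the way of depletion, the time of sampling and the sex and age of the mice are not given in the sources used here, and CTM is named as the labels name it. RNA was extracted on 3 dates, 1 for the first 3 WT livers, 1 for the depletion pair and 1 for the TG2-KO pair, so a difference between TG2-KO and WT livers cannot be told apart from one between dates. RAW264.7, a mouse macrophage-like cell line, gave 14 further libraries with 2 per group, treated for 24 h with LPS at 1 µg/mL plus CTM at 0.5 mM, LPS alone or PBS, or for 12 h with LPS at 1 µg/mL or PBS in Vim-KO and WT cells.

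Levels are in TPM, a share of all transcripts after dividing by transcript length, so levels of different genes can be compared. TPM hold no read depth, so the depth and the counting error of each library are unknown. Every gene listed for liver differs 2-fold or more between the WT LPS liver and the WT PBS liver, so the size of that contrast belongs to the listing and is given as a description. Any contrast that contains one of those livers is tied to the listing too. With 1 liver per group there is no estimate of spread between mice and no p-value. In bulk liver, fewer hepatocytes and less RNA per hepatocyte cannot be told apart. Tgm2 stood at 15.5 TPM in the TG2-KO LPS liver and 0.74 TPM in the TG2-KO PBS liver, and between 35.7 and 429 TPM in the WT livers.

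Of the members, 8 lie within 702 kb of chromosome 5 (86889767 to 87591594, GRCm38). In the order of the chromosome these are Ugt2b34, Ugt2b1, Ugt2b35, Ugt2b5, Ugt2b37, Ugt2a3, Sult1b1 and Sult1e1. The others lie on chromosome 1 (Gsta3, 21240589 to 21265661, and Ugt1a10, 88055388 to 88219004), 3 (Gstm4, 108040408 to 108044894), 7 (Sult2a8, 14410686 to 14446769), 9 (Gsta4, 78182774 to 78209349), 10 (Gstt3, 75774115 to 75781414), 12 (Gstz1, 87147165 to 87164723), 17 (Sult1c2, 53829637 to 53846339) and 19 (Gstp2, 4040285 to 4046023).

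Promoters are shown for 4 members that the results below turn on. Gsta3 is the member with the highest level in the WT PBS liver, Ugt2b35 the one furthest below its PBS level with LPS on the log2(TPM + 1) scale, Ugt2b1 the one furthest below its undepleted level in the macrophage-depleted liver on the same scale, and Ugt2a3 a neighbour in the same cluster. Each sequence holds the 250 bases before the annotated start (RefSeq, GRCm38.p6), read on the strand of the gene. Capitals mark matches, on either strand, to the antioxidant response element core TGACNNNGC, the C/EBP core TTGCNNAA, the HNF1 half-site GTTAAT or the nuclear receptor half-site AGGTCA.
Gsta3, chr1:21240335-21240584, plus strand: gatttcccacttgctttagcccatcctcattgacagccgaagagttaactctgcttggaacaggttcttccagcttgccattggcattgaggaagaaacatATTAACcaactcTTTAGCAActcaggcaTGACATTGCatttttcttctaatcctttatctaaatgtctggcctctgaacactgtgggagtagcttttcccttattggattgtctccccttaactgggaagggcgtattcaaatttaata
Ugt2a3, chr5:87337196-87337445, minus strand: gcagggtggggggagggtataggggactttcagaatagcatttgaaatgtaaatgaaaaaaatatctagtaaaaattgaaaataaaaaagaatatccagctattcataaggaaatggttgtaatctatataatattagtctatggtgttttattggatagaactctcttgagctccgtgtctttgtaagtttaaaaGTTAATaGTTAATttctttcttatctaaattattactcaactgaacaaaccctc
Ugt2b1, chr5:86926504-86926753, minus strand: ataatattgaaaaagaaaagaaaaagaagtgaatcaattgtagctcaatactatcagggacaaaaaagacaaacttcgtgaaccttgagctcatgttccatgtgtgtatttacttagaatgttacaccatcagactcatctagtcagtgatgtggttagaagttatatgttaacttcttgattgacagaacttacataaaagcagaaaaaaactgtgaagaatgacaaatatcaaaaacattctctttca
Ugt2b35, chr5:87000610-87000859, plus strand: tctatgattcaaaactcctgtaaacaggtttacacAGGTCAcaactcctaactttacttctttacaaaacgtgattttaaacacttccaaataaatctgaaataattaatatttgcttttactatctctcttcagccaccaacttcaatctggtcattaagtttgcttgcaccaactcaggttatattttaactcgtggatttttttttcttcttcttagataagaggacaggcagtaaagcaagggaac

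The Gsta3 window held the antioxidant response element core, which begins 121 bases before the start, with a C/EBP core and an HNF1 half-site upstream of it. Ugt2a3 held a pair of HNF1 half-sites, which begin 54 and 47 bases before the start. Ugt2b35 held 1 nuclear receptor half-site, and the Ugt2b1 window held no match to these 4 motifs, which says only that these letters are not in it. Promoters were found for 16 members, with none for Gsta4. Among the 11 members with a single annotated start, 1 held the antioxidant core, 2 the C/EBP core, 3 the HNF1 half-site and 4 the nuclear receptor half-site. Among all 32851 promoters of the same length the shares with a match were 10.2%, 9.56%, 6.43% and 14% in the same order. The searched motifs do not overlap one another in the windows shown. A match is a stretch of letters and was not tested as a binding site.

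**Figure D1:**
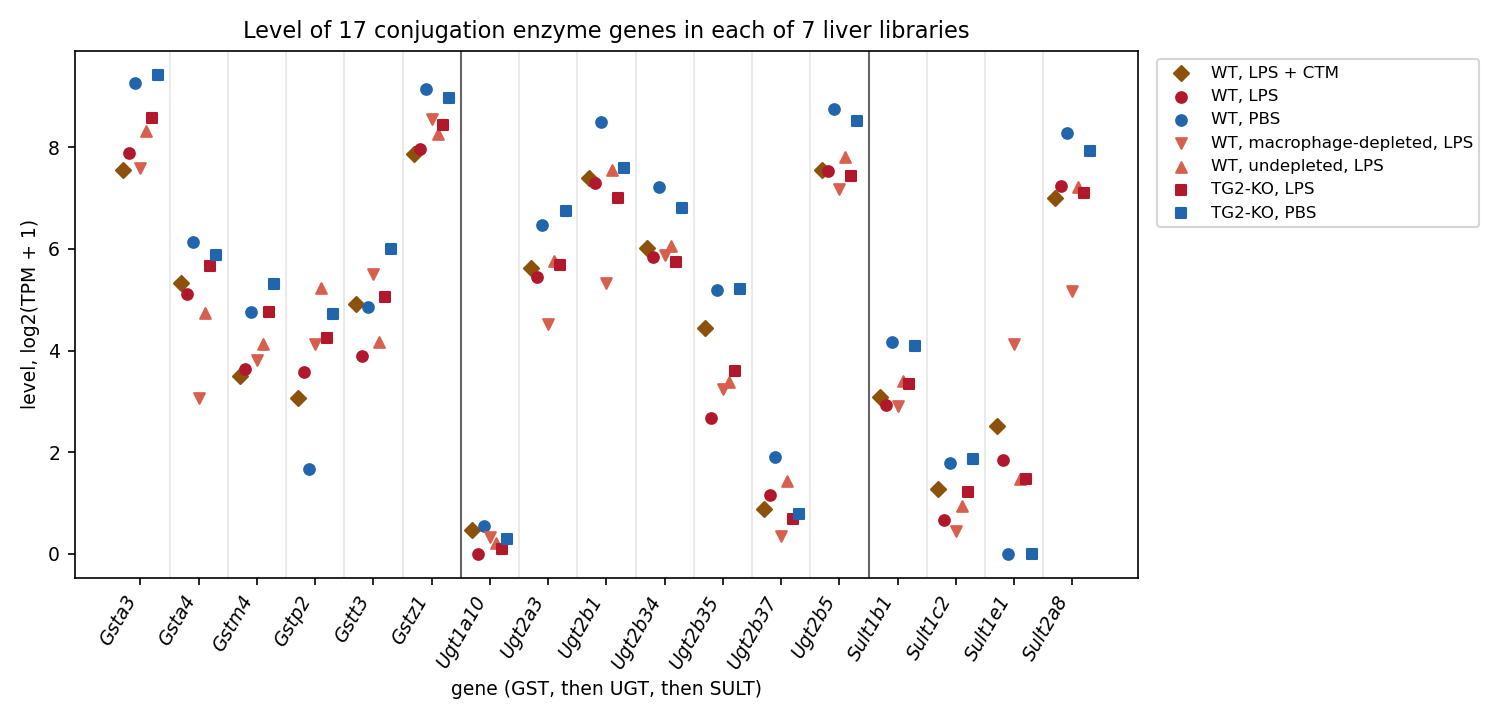
Level of each member as log2(TPM + 1), 1 point per liver library, with GST, UGT and SULT genes separated by vertical lines. For 12 members every LPS-treated liver lies below both PBS livers, against 50.3% of all listed genes. Sult1e1 shows the opposite order, against 21.1%, all on TPM as deposited.

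LPS against PBS in WT liver asks which genes differ in an inflamed liver. In this pair 15 of the 17 members were lower with LPS in TPM as deposited, against 72.5% of all listed genes. Gstp2 and Sult1e1 were higher, against 27.5%. After scaling by the median ratio of the listed genes, 3 were lower and 14 higher. That scaling sets the median of all listed genes near 0 (-0.015), and their shares were not counted on it. On the log2(TPM + 1) scale 12 members were lower by at least 1, against 46.3% of the listed genes, and 2 were higher by at least 1, against 20.6%. The listing fixed these sizes, so nothing is read from the counts. Most lower members stood close to the 2-fold limit of the listing. Of the 14 lower members above 0 in both livers, 9 were 2 to 2.5-fold lower and 12 were 2 to 3-fold lower. Gstt3 (2.01-fold) and Ugt2a3 (2.05-fold) lay just inside the limit, and the genes just outside it are not listed. That scaling moved the median difference of all listed genes from -0.94 to -0.015, and with it 10 of the 12 members lower by at least 1 took positive values of up to 0.36. The listed genes are mostly the lower ones, so which scale is right cannot be told from them, and the levels below are shares of TPM as deposited.

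Among the GST genes, Gsta3, which encodes an alpha class enzyme known in mice for conjugating activated aflatoxin, had 235 TPM in the WT LPS liver and 615 TPM in the WT PBS liver. It stood at 381 TPM in the TG2-KO LPS liver and 688 TPM in the TG2-KO PBS liver. The other LPS-treated WT livers held 188 TPM with CTM, 192 TPM with macrophage depletion and 320 TPM without it, all below both PBS livers. Gstz1, the zeta class enzyme that isomerises maleylacetoacetate in tyrosine breakdown, had 249 TPM in the WT LPS liver and 569 TPM in the WT PBS liver, and 344 TPM in the TG2-KO LPS liver and 503 TPM in the TG2-KO PBS liver. In the other LPS-treated WT livers it stood at 233 TPM with CTM, 375 TPM with macrophage depletion and 308 TPM without it. Gsta4, whose enzyme conjugates the lipid peroxidation product 4-hydroxynonenal, had 33.4 TPM in the WT LPS liver and 69.1 TPM in the WT PBS liver. Gstm4, of the mu class, had 11.4 TPM in the WT LPS liver and 26.1 TPM in the WT PBS liver. In TPM as deposited every LPS-treated liver lay below both PBS livers for these 4 GST genes, as for 50.3% of all listed genes.

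Gstp2 and Gstt3 did not separate LPS from PBS livers. Gstp2, of the pi class, had 10.99 TPM in the WT LPS liver and 2.17 TPM in the WT PBS liver, but 17.9 TPM in the TG2-KO LPS liver and 25.5 TPM in the TG2-KO PBS liver. Its value was 36.8 TPM in the undepleted LPS liver, 3.34-fold that of the other WT LPS liver, which is the widest gap of any member above 0 in both. Of the 31-base stretches in Gstp2 transcripts (GENCODE M21), 60.3% also occur in transcripts of other genes and 54.8% in Gstp1, so its reads can be divided between these paralogs. Gstt3, of the theta class, had 13.9 TPM in the WT LPS liver and 27.9 TPM in the WT PBS liver, and 32.03 TPM in the TG2-KO LPS liver and 62.8 TPM in the TG2-KO PBS liver. The macrophage-depleted liver held 44.2 TPM of Gstt3, above the WT PBS liver although LPS had been given.

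The UGT genes were led by Ugt2b5 and Ugt2b1. Ugt2b5 had 184 TPM in the WT LPS liver and 428 TPM in the WT PBS liver, and 173 TPM in the TG2-KO LPS liver and 367 TPM in the TG2-KO PBS liver. Ugt2b1 had 157 TPM in the WT LPS liver and 358 TPM in the WT PBS liver, and 126.5 TPM in the TG2-KO LPS liver and 191 TPM in the TG2-KO PBS liver. Of the 31-base stretches of Ugt2b5 56.4% occur in other genes and 44.9% in Ugt2b38, whereas for Ugt2b1 the share is 0.826%. Ugt2b34 had 56.1 TPM in the WT LPS liver and 147 TPM in the WT PBS liver. Ugt2a3, whose human counterpart glucuronidates bile acids, had 42.8 TPM in the WT LPS liver and 87.6 TPM in the WT PBS liver. For these 4 genes all 5 LPS-treated livers lay below both PBS livers in TPM as deposited, which holds for 50.3% of all listed genes.

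Ugt2b35 was the member furthest below its PBS level with LPS in both genotypes, as deposited and under each other pseudocount, filter, scaling and WT LPS liver tried, while Gstp2 or Sult1e1 differed more in size under some of these. It had 5.39 TPM in the WT LPS liver and 35.5 TPM in the WT PBS liver, a difference of -2.51 on the log2(TPM + 1) scale, and 11.1 TPM in the TG2-KO LPS liver and 36.2 TPM in the TG2-KO PBS liver, a difference of -1.62. It is also the only member whose WT difference stayed below -1 after the scaling named above. The other LPS-treated livers held 20.8 TPM with CTM, 8.47 TPM with macrophage depletion and 9.45 TPM without it. The remaining UGT genes were low, with at most 2.74 TPM for Ugt2b37 and 0.47 TPM for Ugt1a10 in any liver. Ugt1a10 shares its last exons with the rest of the Ugt1a locus, and 72.9% of its 31-base stretches occur in other genes.

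Among the SULT genes, Sult2a8, of the family that sulfates hydroxysteroids and bile acids, had 149 TPM in the WT LPS liver and 311 TPM in the WT PBS liver. In TG2-KO mice it had 136 TPM in the LPS liver and 243 TPM in the PBS liver. Sult1b1, known for sulfating thyroid hormones and small phenols, had 6.58 TPM in the WT LPS liver and 17.1 TPM in the WT PBS liver. Sult1c2 had 0.58 TPM in the WT LPS liver and 2.45 TPM in the WT PBS liver. Sult1e1, the estrogen sulfotransferase, was listed at 0 in both PBS livers and above 0 in all 5 LPS-treated livers, at 2.58 TPM in the WT LPS liver, 4.72 TPM with CTM, 1.79 TPM in the undepleted liver, 16.5 TPM in the macrophage-depleted liver and 1.79 TPM in the TG2-KO LPS liver. It was the only member to lie above both PBS livers in every LPS-treated liver, which 21.1% of all listed genes did.

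**Figure D2:**
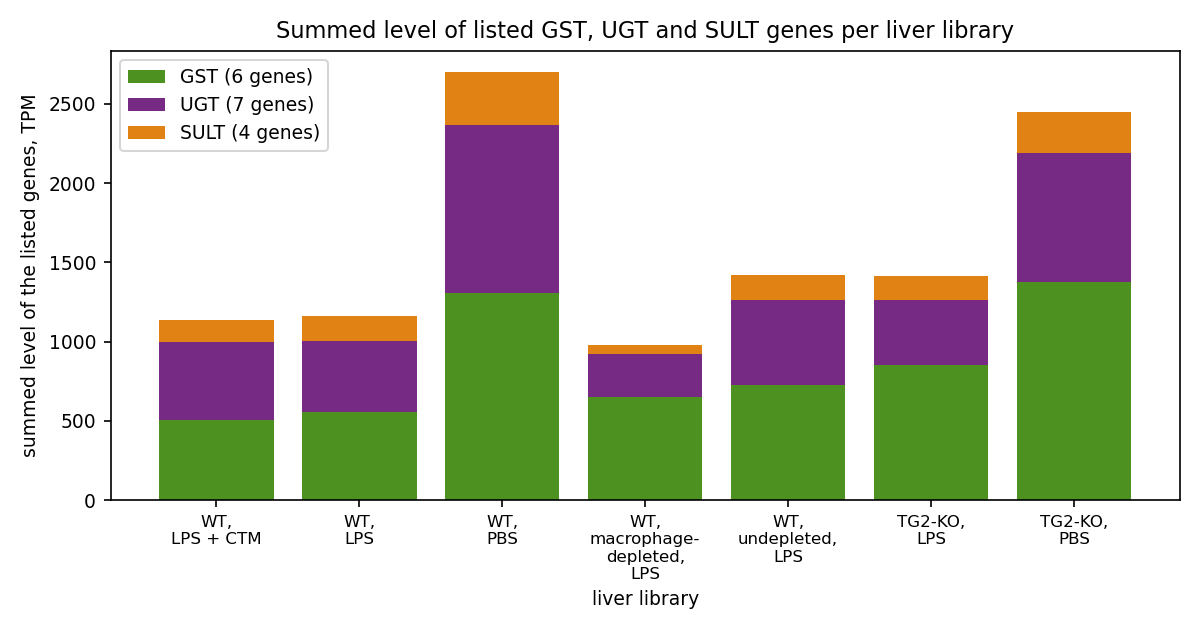
Summed TPM of the listed GST, UGT and SULT genes in each liver library, stacked. The members together summed to 1160 TPM in the WT LPS liver and 2700 TPM in the WT PBS liver, and the macrophage-depleted liver had the lowest sum, at 979 TPM.

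Summed over members, GST genes had 554 TPM in the WT LPS liver and 1309 TPM in the WT PBS liver, UGT genes 447 and 1060 TPM, and SULT genes 159 and 331 TPM. The WT LPS liver thus held 42.3%, 42.2% and 48.1% of the WT PBS sums. In TG2-KO mice the sums were 850 TPM in the LPS liver and 1376 TPM in the PBS liver for GST genes (61.8%), 413 and 812 TPM for UGT genes (50.9%) and 148 and 261 TPM for SULT genes (56.8%). A pair of GST genes (Gsta3, Gstz1), a pair of UGT genes (Ugt2b5, Ugt2b1) and Sult2a8 made up 84.5% of the summed level in the WT PBS liver.

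In TPM as deposited, all 5 LPS-treated livers lay below both PBS livers for 12 members, against 50.3% of all listed genes. They lay above them for 1 member, against 21.1%. The ranges overlapped for Gstp2, Gstt3, Ugt1a10 and Ugt2b37. The WT LPS and WT PBS livers that decided the listing are among these 7, so this order is a description. It also depends on the scale. After median-of-ratios scaling 14 of the 17 members were higher in the WT LPS than in the WT PBS liver, among them Gsta3, Gstz1, Ugt2b5, Ugt2b1 and Sult2a8. The median difference of all listed genes was then -0.015, and the share of them that was higher was not counted.

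Markers of several cell types differed between LPS and PBS livers. In the WT LPS and WT PBS livers, the listed neutrophil markers (6 of 8) summed to 86.3 and 1.73 TPM, with Retnlg and Ngp at 0 in the PBS liver, and the Kupffer cell markers (7 of 8) to 30.5 and 65.2 TPM. Sinusoidal endothelial markers (7 of 8) summed to 43.01 and 122 TPM and stellate cell markers (4 of 8) to 7.39 and 35.8 TPM. In the TG2-KO LPS and TG2-KO PBS livers the sums were 157 and 29.8 TPM for neutrophil and 30.1 and 44.2 TPM for Kupffer cell markers. They were 44.2 and 97.7 TPM for endothelial and 7.55 and 32.01 TPM for stellate cell markers. Marco (11.26 and 4.04 TPM), Adgre1 of the Kupffer cell markers (1.49 and 1.24 TPM) and Lyve1 (16.1 and 3.06 TPM) went against their sums. Of 10 hepatocyte markers 3 are listed, and they differed in direction between the WT LPS and WT PBS livers. Fgb, a fibrinogen chain of the acute phase response, had 10767 and 2111 TPM and Tat 2031 and 746 TPM, whereas Hpd had 923 and 1876 TPM, so their sum of 13721 and 4734 TPM rests mostly on Fgb. The part of these shifts in the conjugation genes was not tested.

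The TG2-KO pair did not enter the listing and gives the same contrast in other mice. With LPS, 16 of 17 members were lower than with PBS in TPM as deposited, against 68.3% of all listed genes. Sult1e1 was higher, against 31.3%. After scaling 10 were lower and 7 higher, and the shares of all listed genes were not counted on that scale. By at least 1 on the log2(TPM + 1) scale, 4 members were lower (Ugt2a3, Ugt2b34, Ugt2b35 and Ugt2b5), against 17.1% of listed genes, and 1 was higher, against 14.8%. The median difference of the members was -0.65, and that of all listed genes -0.38. Scaling moved these medians to -0.20 and -0.033, and 1 member, Ugt2b35, then remained lower by at least 1. Ugt2b34 had 52.5 TPM in the LPS liver and 111 TPM in the PBS liver, and Ugt2a3 50.2 and 106 TPM. Gsta4 (49.8 TPM in the LPS liver and 57.9 TPM in the PBS liver) and Ugt2b37 (0.60 and 0.71 TPM) differed least in proportion.

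**Figure D3:**
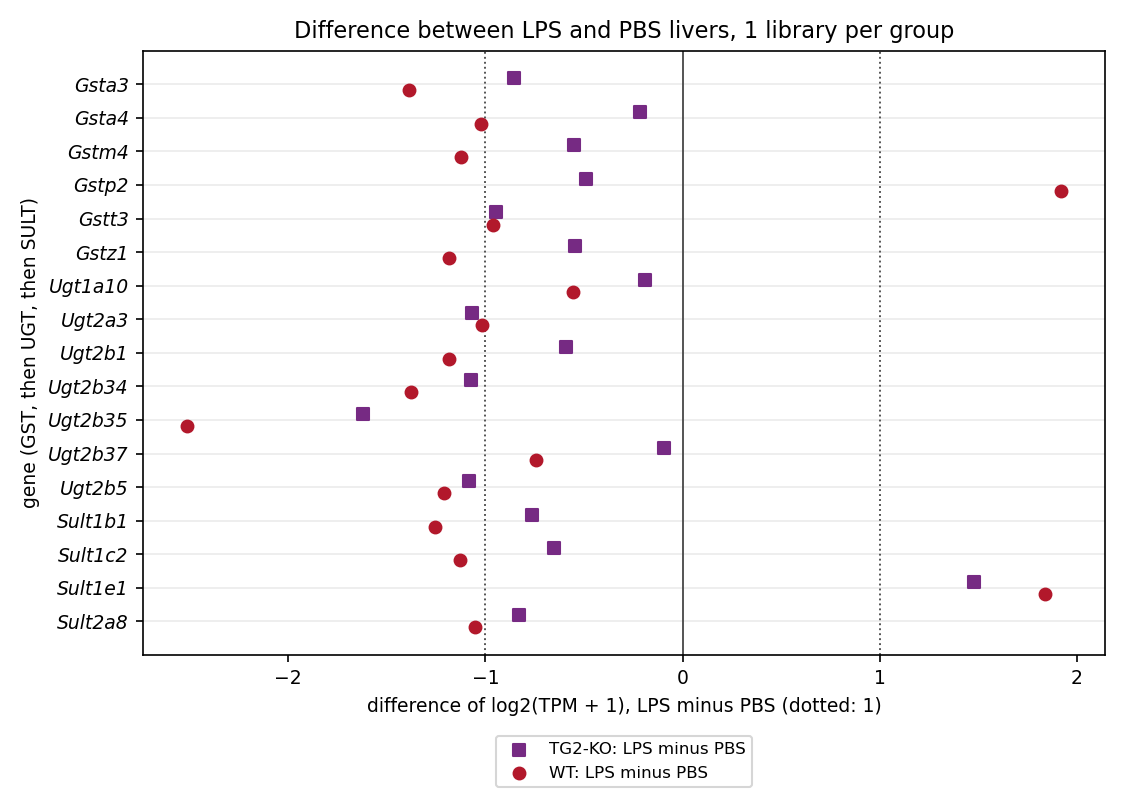
Difference of log2(TPM + 1) between LPS and PBS livers for each member, in TG2-KO mice (squares) and WT mice (circles), with 1 library per group and dotted lines at 1 in either direction. Points lie left of 0 in both genotypes for all members except Gstp2 and Sult1e1. After median-of-ratios scaling, which sets the median of all listed genes near 0, 14 members lie right of 0 in WT and 7 in TG2-KO mice.

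TG2-KO against WT livers asks whether loss of transglutaminase 2 changes these genes. Under LPS no member was lower in the TG2-KO liver by at least 1, against 2.04% of listed genes, and Gstm4 (25.9 TPM in the TG2-KO liver and 11.4 TPM in the WT liver) and Gstt3 (32.03 and 13.9 TPM) were higher by at least 1, against 4.27%. When the undepleted WT LPS liver stood in for the WT LPS liver, no member differed by 1 in either direction, nor did any after scaling. With PBS, Gstt3 was higher in the TG2-KO liver as well (62.8 TPM, against 27.9 TPM in the WT liver), and Gstp2 stood at 25.5 TPM, against 2.17 TPM in the WT liver. These 2 members higher by at least 1 compare with 2.94% of listed genes. Ugt2b37 was lower by at least 1 (0.71 TPM in the TG2-KO liver and 2.74 TPM in the WT liver), against 4.76%, and Ugt2b1 did not reach that size, at -0.90. Gstt3 was the only member higher by at least 1 in the TG2-KO liver under both treatments. Part of its transcript sequence, 14% of the 31-base stretches, occurs in other genes.

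The 2 undepleted WT livers with LPS, from different extraction dates and with 1 of the doses not given, give 1 difference per gene. Mouse, date and possibly dose cannot be told apart in it, and it gives no measure of spread between mice. The WT LPS liver helped to decide the listing, which ties this difference to it. The undepleted liver of the depletion pair was higher than the WT LPS liver for 14 of 17 members, against 72.6% of all listed genes. The median size of the difference was 0.30 on the log2(TPM + 1) scale, against 0.37 for all listed genes, and 1 member, Gstp2, differed by at least 1. Over all listed genes 5.89% were higher by at least 1 and 1.62% lower.

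Macrophage depletion under LPS asks what liver macrophages contribute to the response, and this pair did not enter the listing and shares 1 extraction date. In the depleted liver 6 of 17 members were lower by at least 1 (Gsta4, Gstp2, Ugt2a3, Ugt2b1, Ugt2b37 and Sult2a8), against 6.25% of all listed genes, and 2 were higher (Gstt3 and Sult1e1), against 2.59%. These 8 members come from all 3 families. The counts were the same after median-of-ratios scaling. With a pseudocount of 5, 4 members were lower, with 0.1 there were 7, and a filter of 5 TPM in the higher library left 5 of 14. The count of 2 higher members was the same in each. The 6.25% and 2.59% of all listed genes hold for log2(TPM + 1) without filter or scaling. They were not recomputed under the other settings, so these counts have no share of all listed genes beside them. The median of the members was -0.51, and that of all listed genes -0.04. No test is possible with 1 liver in each group.

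Ugt2b1 had 39.1 TPM in the depleted liver and 187 TPM in the undepleted liver, and the depleted value was the lowest of all 7 livers. Sult2a8 had 34.8 TPM in the depleted liver and 147 TPM in the undepleted liver, again the lowest of all 7. Gsta4 had 7.37 TPM in the depleted liver and 25.7 TPM in the undepleted liver. These 3 genes held 20.9%, 23.7% and 28.7% of the undepleted level. Their levels in the remaining LPS-treated livers stayed between 126.5 and 167 TPM for Ugt2b1, between 127 and 149 TPM for Sult2a8 and between 33.4 and 49.8 TPM for Gsta4.

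The members on either side of Ugt2b1 on chromosome 5 differed little between these livers. Ugt2b34 lies 9.7 kb from Ugt2b1 and had 57.7 TPM in the depleted liver and 65.5 TPM in the undepleted liver. Ugt2b35, on the other side of Ugt2b1, had 8.47 and 9.45 TPM. Ugt2a3 (21.8 TPM in the depleted liver and 52.96 TPM in the undepleted liver) and Ugt2b37 (0.28 and 1.69 TPM) were lower by at least 1, while Sult1e1 at the end of the cluster had 16.5 TPM in the depleted liver and 1.79 TPM in the undepleted liver. Within the GST genes Gstt3 (44.2 TPM in the depleted liver and 17.02 TPM in the undepleted liver) and Gstz1 (375 and 308 TPM) stood higher and Gsta3 (192 and 320 TPM) and Gstp2 (16.5 and 36.8 TPM) lower. The depleted value of Gstp2 lay above that of the WT LPS liver, at 10.99 TPM. Summed levels in the depleted liver were 89.6% of the undepleted liver for GST genes, 50.5% for UGT genes and 36.5% for SULT genes. Single genes weigh heavily in these sums. Sult2a8 gave 34.8 and 147 TPM of SULT sums of 58.2 and 159 TPM, and Ugt2b1 39.1 and 187 TPM of UGT sums of 272 and 539 TPM.

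**Figure D4:**
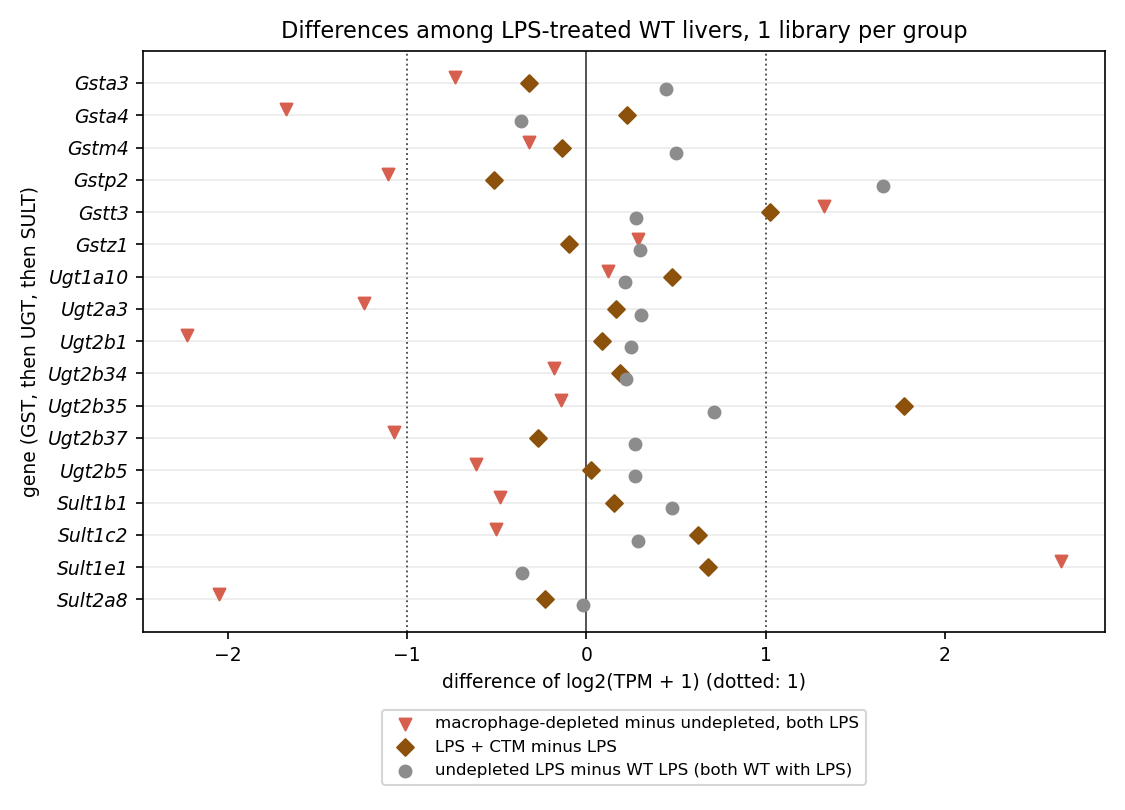
Difference of log2(TPM + 1) for each member between the macrophage-depleted and undepleted livers (triangles) and between LPS plus CTM and LPS livers (diamonds), beside the difference between both undepleted WT livers with LPS (grey circles). The grey circles reach 1.65 in size, at Gstp2, which is more than the depletion difference of that gene (-1.11). Ugt2b1, Sult2a8, Gsta4 and Sult1e1 differ by more than 1.65 in the depleted liver and Ugt2b35 with CTM. Gsta4 does so only narrowly (-1.67). The grey circles come from 1 pair of livers, so 1.65 gives no measure of spread between mice.

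Markers of several cell types differed between the depleted and undepleted livers. The listed Kupffer cell markers, 7 of 8, summed to 12.3 TPM in the depleted liver and 73.1 TPM in the undepleted liver, and none of them was at 0. Neutrophil markers (6 of 8 listed) summed to 235 and 122 TPM, carried by S100a8, S100a9 and Ngp, while Csf3r (2.87 and 9.21 TPM) and Cxcr2 (0.37 and 1.34 TPM) were lower. In the same order, stellate cell markers (4 of 8) summed to 41.2 and 11.2 TPM, sinusoidal endothelial markers (7 of 8) to 84.9 and 56.4 TPM, and cholangiocyte markers (3 of 8) to 16.6 and 18.2 TPM. Des alone had 24.5 and 0.36 TPM of the stellate cell sums. Against their sums, Lyve1 of the endothelial markers was lower (22.0 and 26.4 TPM) and Krt19 of the cholangiocyte markers higher (2.40 and 1.82 TPM). The listed hepatocyte markers, 3 of 10, summed to 15453 and 11782 TPM. Genes typical of hepatocytes around the portal vein (3 of 10 listed) summed to 1081 TPM in the depleted liver and 491 TPM in the undepleted liver, and genes typical of those around the central vein (4 of 10) to 2367 and 2618 TPM. Nearly all of the central vein sums was Cyp2e1, at 2356 and 2605 TPM. The part of these shifts in the conjugation genes was not tested.

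LPS plus CTM against LPS asks whether the compound alters the response, and the pair shares 1 extraction date. No member was lower by at least 1, against 0.887% of listed genes, and 2 were higher, Ugt2b35 and Gstt3, against 0.698%. Ugt2b35 had 20.8 TPM in the LPS plus CTM liver and 5.39 TPM in the LPS liver, a 3.86-fold difference, and its value with CTM was the highest of the 5 LPS-treated livers. Gstt3 had 29.2 TPM in the LPS plus CTM liver and 13.9 TPM in the LPS liver, while the macrophage-depleted and TG2-KO LPS livers reached higher values. Ugt2b35 was the member still higher by at least 1 after median-of-ratios scaling. Other members differed by less than 1, with Ugt2b5 at 188 and 184 TPM, Ugt2b1 at 167 and 157 TPM, Gstz1 at 233 and 249 TPM, Gsta3 at 188 and 235 TPM, Gstp2 at 7.40 and 10.99 TPM, and Sult2a8 at 127 and 149 TPM in the LPS plus CTM and LPS livers. Kupffer cell markers summed to 46.7 and 30.5 TPM in the same livers, with most of the gap in Marco (26.12 and 13.55 TPM). Neutrophil markers summed to 117 and 86.3 TPM, and the part of these markers was not tested. The LPS liver helped to decide the listing, which ties this contrast to it.

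Genes that supply or surround conjugation were read from companion lists. Of 17 genes for cofactor supply to UGT and SULT enzymes 6 are listed, and in WT liver 5 were lower with LPS by at least 1 and 1 was higher, where 46.3% and 20.6% of all listed genes were. Among them were Papss2, which makes the sulfate donor (27.4 TPM in the LPS liver and 75.6 TPM in the PBS liver), and the sulfate transporter Slc26a1 (13.4 and 119 TPM). Of 34 glutathione and NRF2 genes 13 are listed, of which 10 were lower and 2 higher. The heme oxygenase Hmox1 was among the higher ones (256 TPM in the LPS liver and 19.4 TPM in the PBS liver). Cth, which makes cysteine, had 28.4 TPM in the LPS liver and 105 TPM in the PBS liver, and 94.5 TPM in the LPS plus CTM liver. Of 24 transporters 14 are listed, 9 lower and 1 higher, with the bile acid importer Slc10a1 at 173 and 573 TPM and the bile salt export pump Abcb11 at 26.2 and 54.8 TPM.

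Of 20 other conjugation enzymes 12 are listed, 10 lower and 2 higher with LPS in WT liver, beside the same 46.3% and 20.6% of all listed genes. The nicotinamide methyltransferase Nnmt had 374 TPM in the LPS liver and 88.95 TPM in the PBS liver. Of 39 regulators 20 are listed, 16 lower and 2 higher, beside the same shares. The retinoid receptor partner Rxra had 44.1 TPM in the LPS liver and 105 TPM in the PBS liver, the bile acid receptor Nr1h4 15.3 and 74.2 TPM, the clock output factor Dbp 3.58 and 101 TPM, and Cebpb, an inflammation-responsive factor, 424 and 183 TPM. In the depleted against the undepleted liver, none of the 20 regulators was lower by at least 1 and 1 was higher, and of the 12 other conjugation enzymes 2 were lower and 2 higher, where 6.25% and 2.59% of all listed genes were. Among the lower enzymes Inmt, the indolethylamine methyltransferase, had 73.6 TPM in the depleted liver and 509 TPM in the undepleted liver. Among the higher ones Nnmt had 834 and 401 TPM. All of these genes passed the same 2-fold listing, so their WT differences are descriptions too. In the TG2-KO pair the counts lower and higher with LPS by at least 1 were 6 and 0 of 12 other conjugation enzymes, 1 and 0 of 6 cofactor genes, 2 and 2 of 13 glutathione and NRF2 genes, 3 and 1 of 14 transporters, and 14 and 2 of 20 regulators, where 17.1% and 14.8% of listed genes passed. The median of the regulators in that pair was -1.60, beyond that of the conjugation genes themselves (-0.65), which was not tested.

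RAW264.7 cells show which members a macrophage-like line expresses and allow a test. Of the 17 members 10 were at 0 TPM in all 14 libraries, among them every listed UGT gene, Sult1b1, Sult1c2 and Sult1e1. A further 4 (Gsta3, Gsta4, Gstp2 and Sult2a8) averaged under 1 TPM. Gstz1, Gstt3 and Gstm4 averaged at least 1 TPM and were tested with limma on log2(TPM + 1). UGT genes not listed for liver were expressed in these cells. In the PBS libraries of WT cells at 12 h Ugt1a7c had 46.9 and 46.1 TPM and Ugt1a6a 8.42 and 9.31 TPM. Macrophage markers summed to between 8949 and 17487 TPM in these libraries, with 7 of 8 averaging at least 1 TPM, and hepatocyte markers to at most 0.43 TPM. Separate cultures are not stated for the 2 libraries of a group, and p-values therefore reflect only how these libraries vary, which may be technical. RNA of the 24 h and 12 h experiments was extracted on different dates, so times cannot be told apart from dates. The targeted gene Vim stood between 16.99 and 32.95 TPM in Vim-KO cells and between 1375 and 1930 TPM in WT cells.

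Gstz1 fell with LPS at 12 h and at 24 h. At 12 h it had 11.1 and 13.7 TPM in WT cells with LPS and 31.4 and 30.4 TPM in WT cells with PBS, a log2 fold change of -1.26 ± 0.10 (SE, limma adjusted p = 1.48e-05). At 24 h the LPS libraries had 24.1 and 24.4 TPM and the PBS libraries 31.8 and 33.2 TPM, a log2 fold change of -0.41 ± 0.081 (limma adjusted p = 0.00319), which did not pass after median-of-ratios scaling (limma adjusted p = 0.1176). Vim-KO cells, which lack vimentin, had 24.3 and 24.5 TPM in the LPS libraries and 53.9 and 51.4 TPM in the PBS libraries at 12 h, a log2 fold change of -1.08 ± 0.10 (limma adjusted p = 3.77e-05). The difference between the genotypes in this change was 0.18 ± 0.14 (limma interaction, adjusted p = 0.417).

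Gstt3 stood at 5.25 and 6.58 TPM in the LPS libraries and 8.40 and 8.07 TPM in the PBS libraries of WT cells at 12 h and fell by 0.42 ± 0.13 on the log2 scale (limma adjusted p = 0.0186). Its limma adjusted p ranged from 0.05986 to 0.1236 when either PBS library or the first LPS library was left out, and was 0.5593 after scaling. In Vim-KO cells Gstt3 stood at 2.27 and 2.26 TPM in the LPS libraries and 3.88 and 3.69 TPM in the PBS libraries (-0.55 ± 0.13, limma adjusted p = 0.00595; interaction adjusted p = 0.671). At 24 h it stood at 7.53 and 7.75 TPM in the LPS libraries and 7.37 and 7.18 TPM in the PBS libraries (0.062 ± 0.12, limma adjusted p = 0.669). Gstm4 stood at 2.16 and 1.64 TPM in the LPS libraries and 3.75 and 2.53 TPM in the PBS libraries at 12 h, and did not pass (-0.51 ± 0.22, limma adjusted p = 0.0703), but did without the second PBS library (limma adjusted p = 0.04286). In Vim-KO cells Gstm4 stood at 2.58 and 1.55 TPM in the LPS libraries and 1.59 and 1.71 TPM in the PBS libraries (0.19 ± 0.22, limma adjusted p = 0.476; interaction adjusted p = 0.158). At 24 h none of the 3 differed with CTM beside LPS past the threshold. Gstz1 stood at 25.1 and 26.3 TPM in the LPS plus CTM libraries and 24.1 and 24.4 TPM in the LPS libraries (limma adjusted p = 0.482).

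**Figure D5:**
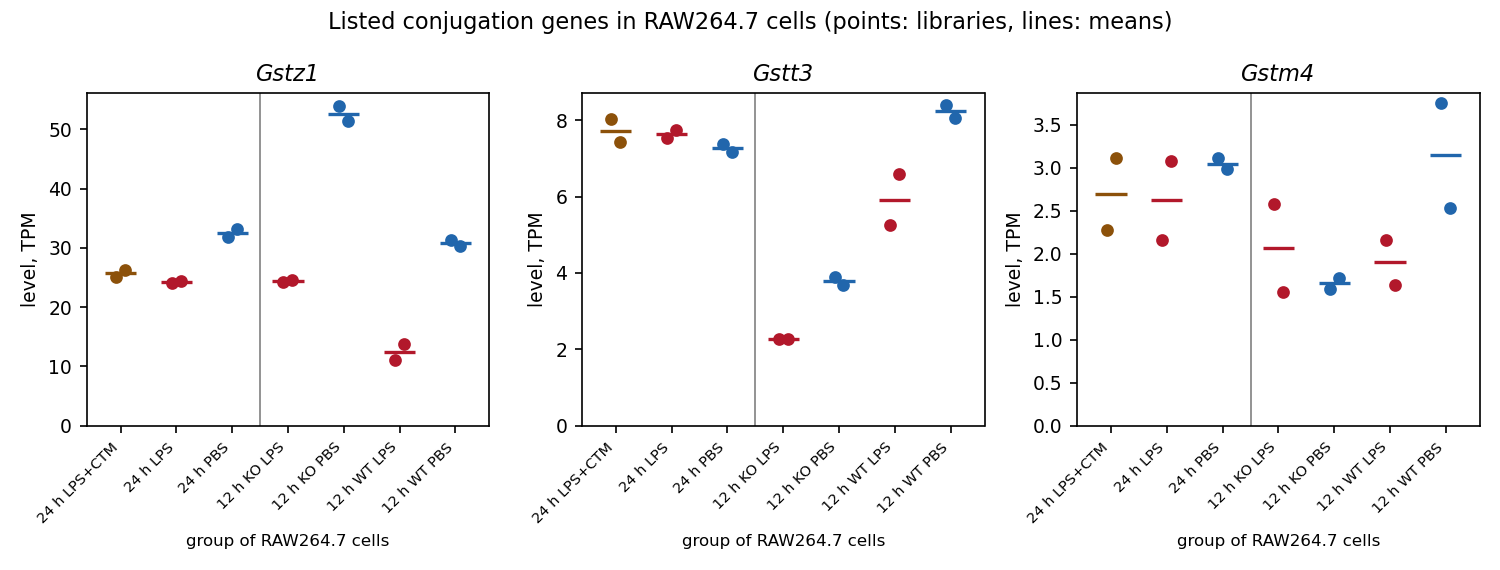
TPM of Gstz1, Gstt3 and Gstm4 in RAW264.7 cells, with a point per library and a line at the mean of 2 libraries, for the 24 h groups (left of the vertical line) and the 12 h groups of Vim-KO and WT cells (right of it). Gstz1 is lower with LPS than with PBS in all 3 pairs of groups, and the 24 h difference does not pass after scaling.

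Of the 17 genes with these prefixes that were tested at 12 h, 12 fell and 3 rose with LPS in WT cells, where 53.1% and 17.8% of the 11115 genes tested did. After scaling 9 fell and 3 rose. Scaling moved the median change of all genes tested from -0.35 to 0.0064 at 12 h and from -0.23 to 0.0063 at 24 h. The shares of all genes given here and below are before scaling and were not counted after it. At 24 h 5 of 17 fell and 7 rose, where 45.1% and 20.9% of 11030 genes did, and after scaling 3 fell and 7 rose. The members of the families that the liver listing does not hold include the theta class gene Gstt4, at 31.3 and 28.7 TPM in the LPS libraries and 0.31 and 0.21 TPM in the PBS libraries of 12 h (4.62 ± 0.13, limma adjusted p = 8.25e-08). The microsomal gene Mgst3 stood at 8.02 and 7.83 TPM in the LPS libraries and 43.2 and 41.8 TPM in the PBS libraries of 12 h (-2.29 ± 0.077, limma adjusted p = 1.59e-07). Against LPS alone at 24 h, 3 of 17 rose and 1 fell with LPS plus CTM, where 16.1% and 9.45% of genes did, and 1 rose and 1 fell after scaling. Leaving out any of the 4 libraries left 0 that fell, and 0 to 3 that rose, with 0 without the first LPS or the second CTM library and 1 without the first CTM library. Gsto1, of the omega class, stood at 72.4 and 82.6 TPM in the LPS plus CTM libraries and 50.03 and 60.2 TPM in the LPS libraries (0.49 ± 0.11, limma adjusted p = 0.0168), and did not pass without the first LPS library (limma adjusted p = 0.06395) or the second CTM library (0.1088). Gstt4, Mgst3 and Gsto1, and Ugt1a7c and Ugt1a6a above, were chosen as examples after their values were seen.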

How the data were processed

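TPM were estimated by the authors with Salmon, and the submitters' processing notes name mm10 and GRCm38. Salmon's version, the annotation and the summing to gene symbols are not given in the sources used here. Reads came from a stranded mRNA kit, per the labels. The deposited liver TPM were tested to differ 2-fold or more between the WT LPS and WT PBS libraries in every row, and they sum to between 153180 and 336332 TPM per library. Liver differences are of log2(TPM + 1) with no test. Differences of at least 1 were counted beside all 5298 listed genes. Cell line genes averaging at least 1 TPM over an experiment were tested with limma 3.58.1 (R 4.3.3), using a model of all groups of the experiment, a trended variance and Benjamini-Hochberg adjustment over all genes tested, at a threshold of 0.05. The model was tested on simulated data. At 24 h the replicate numbers of the LPS and CTM columns differ from the labels, so these columns were assigned to groups only. Members with at least 10 TPM in any liver (14 of 17) were described by name and the others more briefly. Companion genes were named from the 4 with the highest TPM of each list. Positions and shared 31-base stretches come from GENCODE M21, which may differ from the annotation behind the values. Members, lists and tests were chosen with earlier results of these data known, and the prefixes were applied to the cell line after its values were seen. Alternatives were other pseudocounts and filters, median-of-ratios scaling, another WT LPS liver and, for the cell line, an untrended variance, fewer groups, a replicate block and leaving out each library.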

Additional observations from a re-analysis of the deposited data

Results flagged for a closer look

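Gstp2 differed in opposite directions with LPS in TG2-KO and WT livers. It was lower with LPS in the TG2-KO pair (17.9 TPM in the LPS liver and 25.5 TPM in the PBS liver) and higher in the WT pair (10.99 TPM in the LPS liver and 2.17 TPM in the PBS liver). The change in TG2-KO minus that in WT liver was -2.41 on the log2(TPM + 1) scale. With 1 liver per group this difference was not tested. After median-of-ratios scaling the TG2-KO change was 0.0919 and the WT change 2.95, so the opposite direction holds only in TPM as deposited. The 3 LPS-treated WT livers without depletion held 10.99, 7.40 and 36.8 TPM, and 60.3% of the 31-base stretches of Gstp2 occur in other genes.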

How the results depend on the processing

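Counts of members past a log2 difference of 1 or past the limma threshold were recomputed under 118 alternatives, of which 96 stayed within 1.5 times. The shares of all genes past the same limits were not recomputed. A count of 0 that stayed 0 is among the 96, as for members lower with CTM in liver, so this share is no measure of stability. With a pseudocount of 5, members lower and higher with LPS in WT liver numbered 7 and 1. That setting left 0 higher in TG2-KO LPS against PBS, 1 higher with CTM, 0 higher in TG2-KO against WT under LPS and 0 lower with PBS. With a pseudocount of 0.1, 4 were higher with CTM and 4 in TG2-KO against WT under LPS. A filter of 5 TPM in the higher library, which leaves 13 members in these contrasts, gave 1 higher in WT LPS, 0 higher in TG2-KO LPS against PBS and 0 lower in TG2-KO against WT with PBS. Median-of-ratios scaling sets the median of the listed genes near 0 by construction. It left 1 lower in WT LPS, 1 lower in TG2-KO LPS, 1 higher with CTM, and 0 higher under LPS and 0 lower with PBS in TG2-KO against WT. In WT LPS against PBS it reversed Gsta3 (0.0112), Gsta4 (0.35), Gstm4 (0.20), Gstz1 (0.21), Ugt2a3 (0.36), Ugt2b1 (0.21), Ugt2b34 (0.0093), Ugt2b5 (0.19), Sult1b1 (0.0215) and Sult2a8 (0.34). With the undepleted LPS liver in place of the WT LPS liver, 4 were lower than with PBS and 0 were higher in TG2-KO under LPS. In RAW264.7 cells scaling left 0 of 3 members lower at 24 h and 1 at 12 h. Leaving out 1 library gave 1 to 2 members lower at 12 h and did not change the other counts of these 3 members. Over the 17 genes with these prefixes it gave 4 to 5 lower and 7 higher with LPS at 24 h, 9 to 10 lower and 2 to 3 higher at 12 h, and 0 lower and 0 to 3 higher with CTM. Without a filter 0 rose with CTM.

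Equal replicate numbers of RAW264.7 libraries showed no strong shared deviation, which cannot tell whether these libraries were handled as pairs. Within-group differences of equal numbers correlated at -0.141 between WT LPS and PBS at 12 h and at -0.031 between CTM and LPS at 24 h. Over all pairs of groups compared they ranged from -0.219 (WT LPS and Vim-KO LPS) to 0.098 (WT PBS and Vim-KO LPS). A replicate block gave 3 members lower at 12 h (Gstm4 at a limma adjusted p of 0.04283) and 0 with CTM in either direction. Crossed numbers, added after seeing the data, gave 2 lower. They were fitted on the LPS and PBS groups of WT cells only and the 12 h block on all groups, so these counts differ in more than the numbering. Depth is unknown, so counting error could not be set beside low values such as Ugt1a10, Ugt2b37 and Sult1c2.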
